A study of Mus musculus with 4 samples.

Results

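The CC chemokines described here are 9 mouse ligands, Ccl2, Ccl3, Ccl4, Ccl5, Ccl6, Ccl7, Ccl8, Ccl9 and Ccl12, together with Ccr2, the receptor of several of them. Their probes were found by gene name on the array, and every probe carrying one of these names was taken. The list of genes itself was drawn up with earlier results of these data known. The 10 genes had 13 probes, of 21216 named genes and 41142 probes kept on the array. RNA of whole kidneys from C57BL/6 mice of 8 weeks was measured on 4 one-colour Agilent arrays, 1 for each group. The groups were NLRC5-/- mice with ischemia and reperfusion (injured knockout), NLRC5-/- mice with a sham operation (sham knockout), WT mice with ischemia and reperfusion (injured wild type) and WT mice with a sham operation (sham wild type). Ischemia of both kidneys lasted 30 min. The time of reperfusion is given as 48 h in the titles of the injured samples and in the series design, but the description of each sample gives 24 h, and the labels do not settle which is right. The labels do not say how many animals gave the RNA of an array or which part of Nlrc5 was deleted. Nlrc5 is a regulator of MHC class I genes.

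CC chemokines are small secreted proteins with a pair of adjacent cysteines that draw leukocytes into tissue along a gradient by acting on receptors of the CCR family. Ccl2, Ccl7 and Ccl12 are ligands of Ccr2 in mouse, and the Ccr2 axis is known for the release of monocytes from bone marrow and their recruitment to injured kidney. Ccl3, Ccl4 and Ccl5 act on monocytes, T cells and other leukocytes, and Ccl3 and Ccl5 bind Ccr1. Ccl6 and Ccl9 are made by myeloid cells and act through Ccr1, and mouse Ccl8 is an agonist of Ccr8.

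By their probe coordinates (mm9), the ligands fell into separate runs of neighbouring genes on chromosome 11. The probes of Ccl2, Ccl7, Ccl12 and Ccl8 lay between 81850650 and 81930167, a span of 79.5 kb. Those of Ccl5, Ccl9, Ccl6, Ccl3 and Ccl4 lay between 83339296 and 83478111, a span of 139 kb. The probes of Ccr2 lay on chromosome 9 (A_51_P245989, 124022948 to 124023007, and A_52_P580853, 124023519 to 124023578). 1 of the 2 Ccl5 probes had no position in the files.

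Of the 10 genes, 6 (Ccl3, Ccl6, Ccl8, Ccl9, Ccl12 and Ccr2) matched an entry of the RefSeq promoter table (GRCm38.p6). The 250 bases before the start are shown for 4 of them. Ccl12 and Ccl8 are neighbours that were not above background in the injured wild type array and were above it in the injured knockout array. Ccl9 and Ccl6, also neighbours, were the members that read lower in the injured knockout than in the injured wild type. Each is written 5′ to 3′ on the strand of the gene, with capitals for matches to any of 4 strings searched on both strands. These were GGNNNTTCC, letters shared by many kappaB sites, GAAANNGAA, the core of an interferon-response element, the usual AP-1 string TGACTCA, and the string known from promoters with a fixed start, TATAAA.
Ccl12 (chr11:82101595-82101844, plus strand): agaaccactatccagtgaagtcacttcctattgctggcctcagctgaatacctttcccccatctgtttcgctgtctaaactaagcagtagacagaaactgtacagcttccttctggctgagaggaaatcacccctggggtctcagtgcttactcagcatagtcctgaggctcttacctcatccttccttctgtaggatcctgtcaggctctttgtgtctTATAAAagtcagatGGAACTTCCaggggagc
Ccl8 (chr11:82114935-82115184, plus strand): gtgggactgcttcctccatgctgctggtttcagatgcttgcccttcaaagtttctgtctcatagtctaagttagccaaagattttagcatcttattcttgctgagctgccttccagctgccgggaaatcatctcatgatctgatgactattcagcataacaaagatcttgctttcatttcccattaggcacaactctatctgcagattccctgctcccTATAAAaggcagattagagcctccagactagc
Ccl9 (chr11:83578637-83578886, minus strand): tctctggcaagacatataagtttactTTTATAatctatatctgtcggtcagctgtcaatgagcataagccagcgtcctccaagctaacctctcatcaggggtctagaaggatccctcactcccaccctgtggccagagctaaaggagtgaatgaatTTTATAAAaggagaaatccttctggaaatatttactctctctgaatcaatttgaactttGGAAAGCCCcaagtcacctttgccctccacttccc
Ccl6 (chr11:83593088-83593337, minus strand): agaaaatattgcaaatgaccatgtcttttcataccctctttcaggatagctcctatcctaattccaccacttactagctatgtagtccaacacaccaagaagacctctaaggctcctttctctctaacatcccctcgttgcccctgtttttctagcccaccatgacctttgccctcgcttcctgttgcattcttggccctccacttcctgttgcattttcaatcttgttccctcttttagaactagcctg
TATAAA stood at -31 to -26 from the start in Ccl12 and at -32 to -27 in Ccl8, and GGNNNTTCC matched at -17 to -9 in Ccl12. Ccl9 held a match to GGNNNTTCC at -35 to -27 and matches to TATAAA between -94 and -87, where both strands overlap, and at -224 to -219. Ccl6 held none of the 4 strings. The interferon string was matched in the windows of Ccl3 and Ccr2, and TGACTCA in none of the 6. Among all 32851 promoters of the table, windows of the same length held GGNNNTTCC in 15.7%, GAAANNGAA in 7.13%, TGACTCA in 4.46% and TATAAA in 12.4%. Each match is a string of letters and not a measured binding site.

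Several facts of the arrays touch the values that follow. Levels are log2 of the processed signal minus the 75th percentile of the array, which was 361.7 in the injured knockout, 465.5 in the sham knockout, 181.8 in the injured wild type and 457.0 in the sham wild type. The injured wild type array had the lowest signal and the fewest probes well above background, 67.3% against 71.6% to 74.6% on the other arrays. Both knockout arrays were on 1 slide and both wild type arrays on another, so genotype and slide cannot be told apart, while each injured array shared a slide with the sham array of its genotype. The sham knockout array read the female transcript Xist at 5.20 and had none of 4 Y-linked genes above background. On the other 3 arrays Xist was not above background and all 4 Y-linked genes were, so the sham knockout array had a female pattern and the other 3 a male one. The 6 proximal tubule markers and 3 podocyte markers were above background on all 4 arrays. Nlrc5 read -3.62 in the injured knockout and -3.77 in the sham knockout, against -3.35 in the injured wild type and -4.08 in the sham wild type. Its probe may lie outside the deleted part, so it does not check the labels. In whole-kidney RNA, fewer cells of a type and less RNA per cell cannot be told apart.

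With 1 array per group, no difference between 2 arrays has a replicate check or a p-value. A gene was represented by its brightest probe and counted as higher or lower where the arrays were at least 2-fold apart. A probe too dim to be well above background on one array was set to the lowest level at which that array read probes as such, or to its own level where higher, and its difference is then written as "at least". Probes spotted 5 or more times gave an SD of 0.16 for a difference of single spots between arrays, which is technical noise and leaves out differences between animals. All 10 members were above background in the injured knockout and all 10 in the sham knockout, against 5 in the injured wild type and 9 in the sham wild type. Over all named genes, 77.9% were above background in the injured knockout and 79.0% in the sham knockout. The share was 73.2% in the injured wild type and 76.7% in the sham wild type. Members not above background were Ccl3, Ccl4, Ccl7, Ccl8 and Ccl12 in the injured wild type and Ccl7 in the sham wild type.

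**Figure D1:**
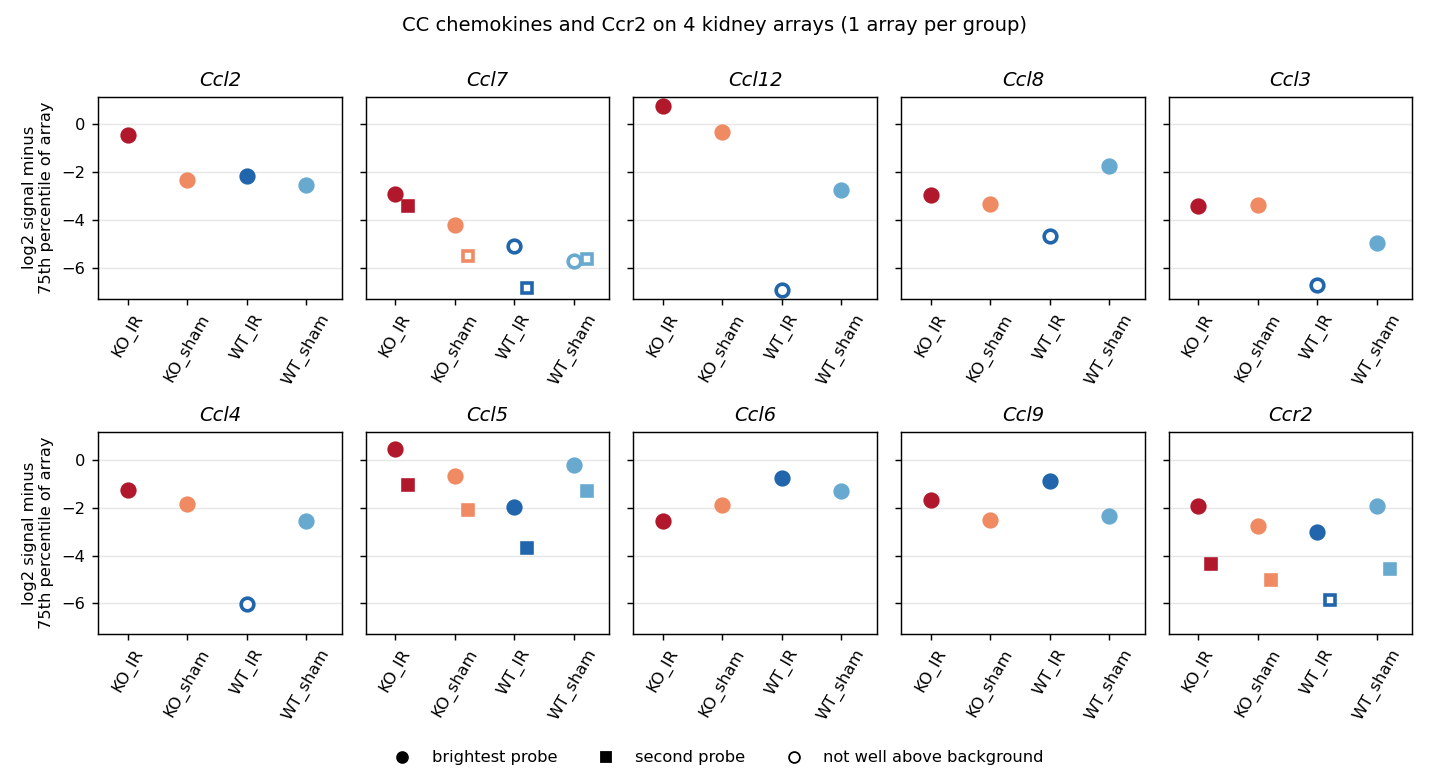
Levels of the 10 genes on each array, as log2 signal minus the 75th percentile of the array (y axis), with 1 array per group on the x axis. Circles are the brightest probe, squares a second probe, and open symbols probes not well above background; Ccl12 reads 0.77 in the injured knockout and is not above background in the injured wild type.

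Among the ligands of Ccr2, Ccl2 (monocyte chemoattractant protein 1) was highest in the injured knockout. Its level was -0.44 in the injured knockout and -2.32 in the sham knockout, against -2.18 in the injured wild type and -2.55 in the sham wild type. The probe was spotted 10 times on each array, and the SD between spots was 0.07 in both knockout arrays, 0.13 in the injured wild type and 0.08 in the sham wild type. The lowest of the 10 spots in the injured knockout, -0.56, lay above the highest spot on any other array, -2.00 in the injured wild type. The other 3 arrays lay within 0.37 of each other. Ccl7 (monocyte chemoattractant protein 3) read -2.89 in the injured knockout and -4.19 in the sham knockout, and was not above background in either wild type array. Its second probe was above background in the injured knockout alone, at -3.43.

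Ccl12 (monocyte chemoattractant protein 5, a mouse ligand of Ccr2) gave the widest span. Its level was 0.77 in the injured knockout, -0.33 in the sham knockout and -2.75 in the sham wild type, and its processed signal was 618.7 units in the injured knockout, 369.5 in the sham knockout and 67.9 in the sham wild type. In the injured wild type the signal was 1.52 units and not well above background. Both knockout arrays were thus above both wild type arrays for Ccl7 and Ccl12. Ccl8 (monocyte chemoattractant protein 2) had another order, with -2.93 in the injured knockout, -3.33 in the sham knockout and -1.74 in the sham wild type, and no level above background in the injured wild type. The sham wild type was its highest array.

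Among the inflammatory ligands of the other run of genes, Ccl3 (macrophage inflammatory protein 1 alpha) read -3.43 in the injured knockout, -3.38 in the sham knockout and -4.94 in the sham wild type. Ccl4 (macrophage inflammatory protein 1 beta) read -1.27 in the injured knockout, -1.83 in the sham knockout and -2.55 in the sham wild type. Neither was above background in the injured wild type. Ccl5 (RANTES, a product of T cells and other leukocytes) was above background on all arrays, at 0.47 in the injured knockout, -0.67 in the sham knockout, -1.95 in the injured wild type and -0.20 in the sham wild type. Its second probe read -1.06 in the injured knockout and -2.09 in the sham knockout, against -3.69 in the injured wild type and -1.31 in the sham wild type. Both probes of Ccl5 were highest in the injured knockout and lowest in the injured wild type.

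The ligands of Ccr1 made by myeloid cells went another way. Ccl6 read -2.54 in the injured knockout and -1.89 in the sham knockout, against -0.76 in the injured wild type and -1.29 in the sham wild type. Ccl9 (macrophage inflammatory protein 1 gamma) read -1.68 in the injured knockout and -2.53 in the sham knockout, against -0.88 in the injured wild type and -2.37 in the sham wild type. The injured wild type was the highest array for both. Ccr2 itself, the receptor that marks inflammatory monocytes, read -1.94 in the injured knockout and -2.78 in the sham knockout, against -3.02 in the injured wild type and -1.93 in the sham wild type. Its second, dimmer probe read -4.37 in the injured knockout, -5.01 in the sham knockout and -4.56 in the sham wild type, and was not above background in the injured wild type. On the brightest Ccr2 probe the injured knockout and the sham wild type did not differ beyond the noise between spots, at -0.01. On the second probe the difference was 0.19.

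The first comparison asks how injured kidneys of the 2 genotypes differed. In the injured knockout, 8 of the 10 members were at least 2-fold higher than in the injured wild type and 1 was lower. Over all 16790 genes compared, 8.72% were higher and 7.75% lower. The ligands of Ccr2 were all higher: Ccl12 by at least 45.7-fold (a log2 difference of at least 5.52), Ccl2 by 3.33-fold and Ccl7 by at least 3.60-fold. Ccl4 was at least 11.1-fold higher, Ccl5 5.35-fold, Ccl8 at least 3.32-fold, Ccl3 at least 2.49-fold and Ccr2 2.11-fold. Ccl6 was 3.43-fold lower, and Ccl9 was 1.74-fold lower, short of 2-fold. By position, all 4 genes of the run from Ccl2 to Ccl8 were higher, and of the 5 genes from Ccl5 to Ccl4, 3 were higher and 1 lower. The median difference over the members, on their own signals, was 1.96, beside 0.05 over all genes. Those of Ccl3, Ccl4, Ccl7, Ccl8 and Ccl12 were not above background in the injured wild type.

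Markers of leukocytes moved with this difference in more than 1 direction. Of 15 macrophage and monocyte markers, 7 were higher in the injured knockout and 1 lower. The complement gene C1qa read -0.79 in the injured knockout and -4.07 in the injured wild type, and Adgre1, a marker gene of tissue macrophages, read -1.01 in the injured knockout and -4.14 in the injured wild type. Cd68, a lysosomal protein of macrophages, read -1.98 in the injured knockout and -0.75 in the injured wild type. Ly6c2, listed as a marker of inflammatory monocytes, stood at 6.49 in the injured knockout and 7.25 in the injured wild type. In the sham wild type its probe already read 34087 units, beside 31946 for the proximal tubule gene Lrp2 and 39.0 for Cd68. Its level therefore cannot be read as an amount of monocytes. The summed scaled signal of the list was 110.5 in the injured knockout and 165.7 in the injured wild type, of which Ly6c2 alone gave 89.8 and 151.9. The sum of the other 14 markers ran the opposite way, at 20.7 in the injured knockout and 13.7 in the injured wild type. All 5 neutrophil markers compared were lower in the injured knockout, with a summed signal of 3.08 there and 12.3 in the injured wild type. T and NK cell markers summed to 1.37 in the injured knockout and 0.86 in the injured wild type, and dendritic cell markers to 1.32 in the injured knockout and 0.62 in the injured wild type. The 6 proximal tubule markers summed to 493.1 in the injured knockout and 189.5 in the injured wild type. The part of these cell types in the chemokine differences was not tested.

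Several of these calls rest on a probe that was dim on the injured wild type array. With both arrays required to be above background 4 members (Ccl2, Ccl5, Ccl6 and Ccr2) were called. Over all genes 1246 were then higher and 1109 lower. With normexp background correction fitted on all spots, Ccl6 (-0.39), Ccl8 (0.94) and Ccr2 (0.80) were no longer called, and without flagged spots Ccl3 and Ccl7 were just short of 2-fold too. In that correction on all spots, Ccl5 stood at 1.41, Ccl4 at least at 1.40 and Ccl12 at least at 2.54 on the log2 scale.

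**Figure D2:**
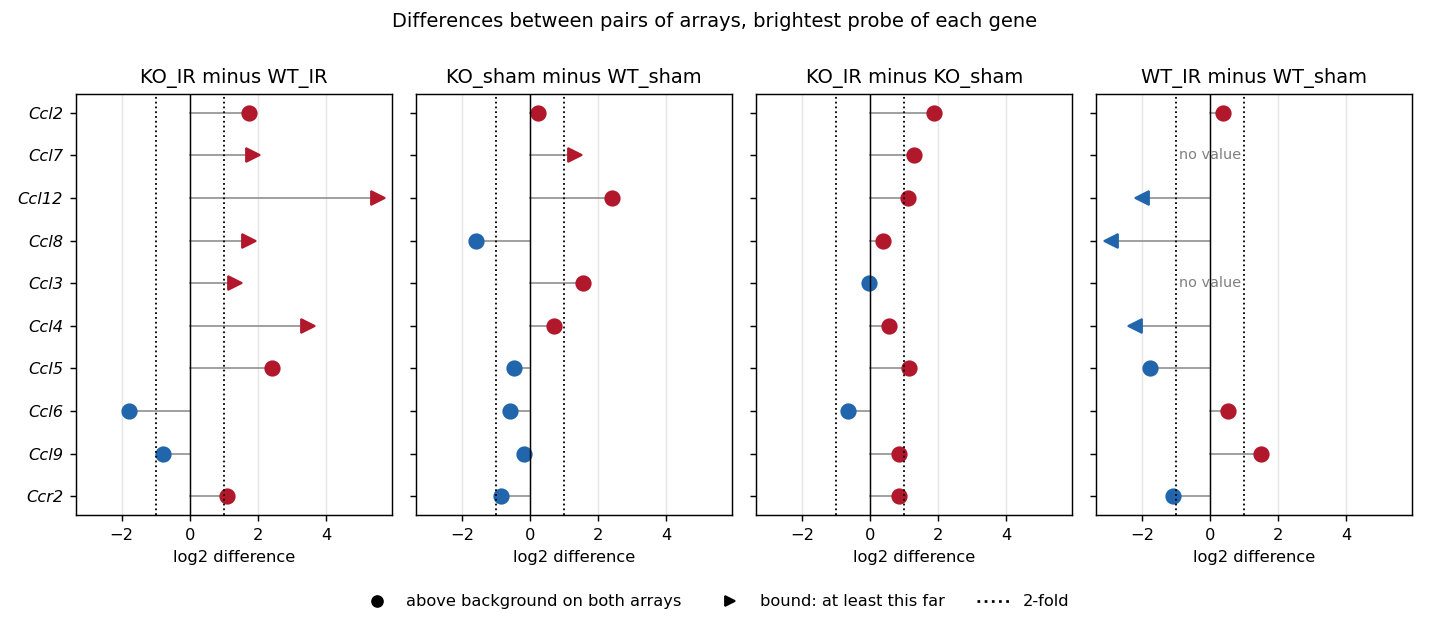
Log2 differences of the 10 genes (rows) between pairs of arrays (panels), with the dotted lines at 2-fold. Circles are measured on both arrays and triangles are bounds; 8 genes lie to the right of the upper line between the injured arrays and 3 between the sham arrays.

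Between the sham arrays, 3 members were at least 2-fold higher in the knockout and 1 was lower. Over 17036 genes, 3.94% were higher and 3.24% lower. Ccl12 was 5.35-fold higher, Ccl3 2.95-fold and Ccl7 at least 2.51-fold, and Ccl8 differed by -1.59 on the log2 scale, the lower call. Ccl2 and Ccl5 differed by 0.23 and -0.47 on the log2 scale, Ccl4 by 0.72, Ccl6 by -0.59, Ccl9 by -0.16 and Ccr2 by -0.85. The median difference over the members, on their own signals, was 0.04, beside 0.05 over all genes.

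The sham arrays also differed in sex pattern and in markers of fat, red cells and urothelium. Fat markers summed to 0.39 in the sham knockout and 26.8 in the sham wild type, and Adipoq and Plin1, which mark fat cells, were above background in the sham wild type alone. Red cell markers summed to 61.0 in the sham knockout and 10.3 in the sham wild type. Urothelium markers summed to 0.99 in the sham knockout and 2.99 in the sham wild type. Macrophage markers without Ly6c2 summed to 24.0 in the sham knockout and 17.98 in the sham wild type, and 1 of them, Itgam, was higher in the knockout. Their part, and that of sex, in the chemokine differences was not tested. The split of all genes called was 672 higher and 552 lower here, but 436 higher and 847 lower with each array scaled to its median, 502 and 643 after quantile normalization and 522 and 645 in the authors' deposited table. In these settings the 4 members kept their direction and their call. With median scaling Ccr2 was called lower as well, at -1.01 on the log2 scale. The call of Ccl7 was lost with probes averaged (0.67 on the log2 scale) and under a common floor (0.56), and its second probe was below background on both sham arrays. With normexp background correction 1 of the 4 calls, that of Ccl12, was left.

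In the knockout, injury went with higher levels of 4 members, Ccl2 by 3.67-fold, Ccl7 by 2.45-fold, Ccl5 by 2.20-fold and Ccl12 by 2.16-fold, and no member was 2-fold lower. Over 17087 genes, 4.45% were higher and 3.18% lower. Ccl9 and Ccr2 each differed by 0.85 on the log2 scale, Ccl4 by 0.56 and Ccl8 by 0.39. Ccl3 stood at -0.05, within the noise between spots, and Ccl6 at -0.65. The median over the members was 0.85, beside 0.02 over all genes. Of the macrophage markers, Cd68, Msr1 and Cd14 were higher and Ly6c1 lower, and 3 neutrophil markers were lower, with a summed signal of 3.08 in the injured knockout and 6.77 in the sham knockout. Red cell markers summed to 4.63 in the injured knockout and 61.0 in the sham knockout. The part of these cells was not tested. With normexp background correction fitted on all spots, Ccl5 (0.88) and Ccl12 (0.73) were short of 2-fold and Ccl6 stood at 0.69.

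Because the sham knockout array had the female pattern, the injured knockout was also set against the sham wild type. That comparison crosses slides and genotypes. Here 5 members were higher, Ccl12 by 3.53 on the log2 scale, Ccl7 by at least 2.62, Ccl2 by 2.11, Ccl3 by 1.52 and Ccl4 by 1.28, and 2 were lower, Ccl6 at -1.25 and Ccl8 at -1.19. Over 16909 genes, 8.87% were higher and 8.53% lower. Ccl2, Ccl7 and Ccl12 were therefore called against either sham array, while Ccl5, at 0.67, was called against the sham knockout only, and Ccl8 had the opposite sign against each sham array.

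In the wild type, injury went with lower levels of 5 members and a higher level of 1. Over 16719 genes, 14.4% were higher and 12.7% lower. Ccl8 was at least 7.59-fold lower in the injured wild type, Ccl4 at least 4.57-fold, Ccl12 at least 3.97-fold, Ccl5 3.37-fold and Ccr2 2.12-fold. Ccl9 was 2.80-fold higher. Ccl2 and Ccl6 differed by 0.37 and 0.53 on the log2 scale. Ccl7 was not above background on either array, and Ccl3 had no usable bound. The median over 9 members on their own signals, Ccl3 included, was -1.75, beside -0.01 over all genes. In it Ccl3, Ccl4, Ccl8 and Ccl12 entered with signals not above background in the injured wild type.

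In the same pair of arrays, 4 of 15 macrophage and monocyte markers were higher (Cd68, Ly6c2, Itgam and Cd14) and 6 lower (Adgre1, Csf1r, C1qa, C1qc, Cx3cr1 and Mrc1). The list summed to 165.7 in the injured wild type and 92.6 in the sham wild type, mostly from Ly6c2. Without Ly6c2 the sums were 13.7 in the injured wild type and 17.98 in the sham wild type, the opposite direction. Neutrophil markers summed to 12.3 in the injured wild type and 4.60 in the sham wild type, and 5 were higher. T and NK cell markers summed to 0.86 in the injured wild type and 1.30 in the sham wild type, and 3 (Cd3d, Cd8a and Nkg7) were lower. Fat markers summed to 0.40 in the injured wild type and 26.8 in the sham wild type. All 5 urothelium markers were lower, with a sum of 0.23 in the injured wild type and 2.99 in the sham wild type. All 4 red cell markers were lower, with a sum of 3.104 in the injured wild type and 10.3 in the sham wild type. Of the kidney markers, 5 of the 6 for proximal tubule and all 3 for podocytes were lower. Their part in the chemokine differences was not tested. With normexp background correction 2 of the 6 calls, Ccl5 and Ccl9, were left, and Ccl4, Ccl8 and Ccr2 differed by -0.03, -0.39 and -0.08.

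**Figure D3:**
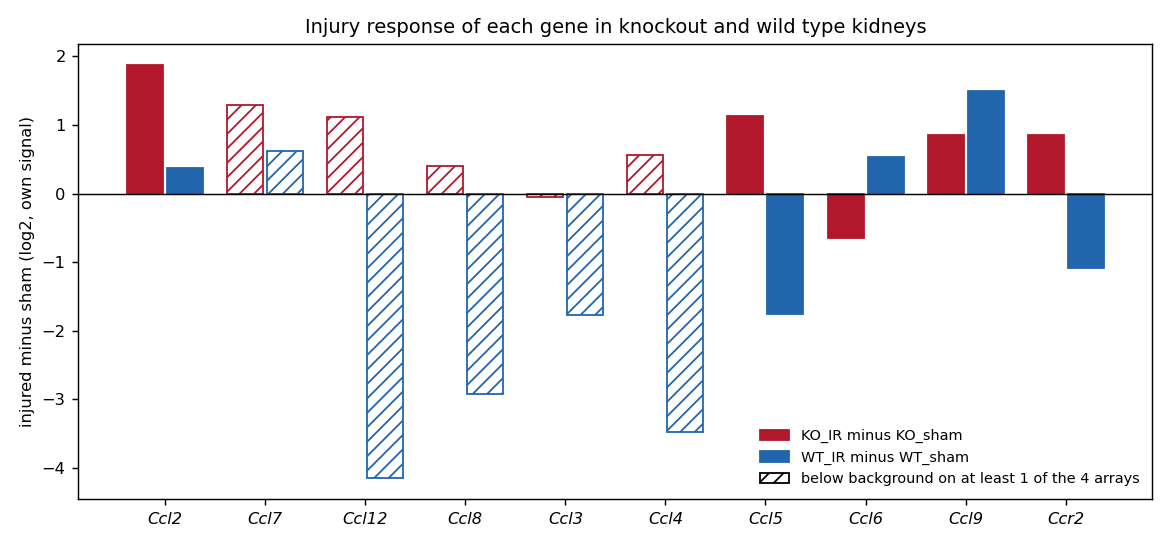
Injury response of each gene, injured minus sham on the log2 scale and on the probe's own signal (y axis), with the knockout bar left of the wild type bar. Filled bars are genes above background on all 4 arrays; Ccl5 stands at 1.14 in the knockout and -1.75 in the wild type.

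The difference between the injury responses could be measured for the 5 members above background on all 4 arrays. Knockout response minus wild type response was 2.89 for Ccl5, 1.93 for Ccr2 and 1.50 for Ccl2, against -1.18 for Ccl6 and -0.64 for Ccl9. Thus 3 of the 5 were at least 2-fold greater and 1 smaller. Over 14994 genes, 9.8% were greater and 9.32% smaller. With normexp background correction Ccl2 stood at 0.94 with all spots, short of 2-fold, and the Ccl6 value turned to 0.14 with all spots and 0.09 without flagged spots. For Ccl4, Ccl8 and Ccl12, which were at background in the injured wild type, the wild type response is only a bound, and each was lower there and higher on its own signal in the knockout.

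The fit across genes was an additive limma model of genotype and treatment with 1 residual degree of freedom, in which a response that differs between genotypes counts as error. For injury over both genotypes it called 0 of 16609 genes, 0% (smallest limma adjusted p 0.419), with 856 higher and 1004 lower at an unadjusted p under 0.05. For genotype over both treatments it likewise called 0 genes, 0% (smallest limma adjusted p 0.767), with 564 higher and 345 lower at an unadjusted p under 0.05. Among the members, Ccl9 had an injury effect of 1.17 (SE 0.31, limma adjusted p = 0.432), higher in the injured array of both genotypes. Ccl2 had an injury effect of 1.13 (SE 0.48, limma adjusted p = 0.432). Neither passed the correction. Ccl3, Ccl7 and Ccl12 were higher in the knockout under both treatments. Their fitted effects rest on a level below background in the injured wild type, and for Ccl7 also in the sham wild type. Those effects are not given. With the other factor dropped and all 4 arrays kept, an alternative chosen after seeing the data, both fits again called 0 genes. When the injured knockout array was left out as well, which leaves 1 injured array, the injury fit called 769 genes. When the sham wild type array was left out instead, which leaves 1 wild type array, the genotype fit called 144.

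Of the other CC chemokines, 11 had a probe. Between the injured arrays 2 were higher in the knockout, Ccl21a by 3.29 and Ccl19 by 2.21 on the log2 scale, and none was lower among the 8 compared. Both are lymphoid chemokines that act on Ccr7, and Ccl21a cannot be told apart from its near-identical copies. In the wild type, injury went with lower Ccl21a (-4.68) and Ccl19 (-2.35) and with higher Ccl20, a ligand of Ccr6, by at least 2.22. In the knockout, Ccl20 was higher by at least 1.41 and Ccl17, a ligand of Ccr4, by 1.13. None of 7 was called between the sham arrays.

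Among 15 CC and atypical receptors, Ccrl2 (1.60) and the scavenging receptor Ackr2 (1.52) were higher in the injured knockout than in the injured wild type, of 10 compared. Ackr2 was also higher in the sham knockout than in the sham wild type, by 1.14, while Ccr1 was lower by at least 1.65. Injury went with lower Ccrl2 (-1.83) and Ackr3 (-1.51) in the wild type, and with no call in the knockout. Ccr1, the receptor of Ccl3, Ccl5, Ccl6 and Ccl9, was above background in the sham wild type alone, at -3.96.

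**Figure D4:**
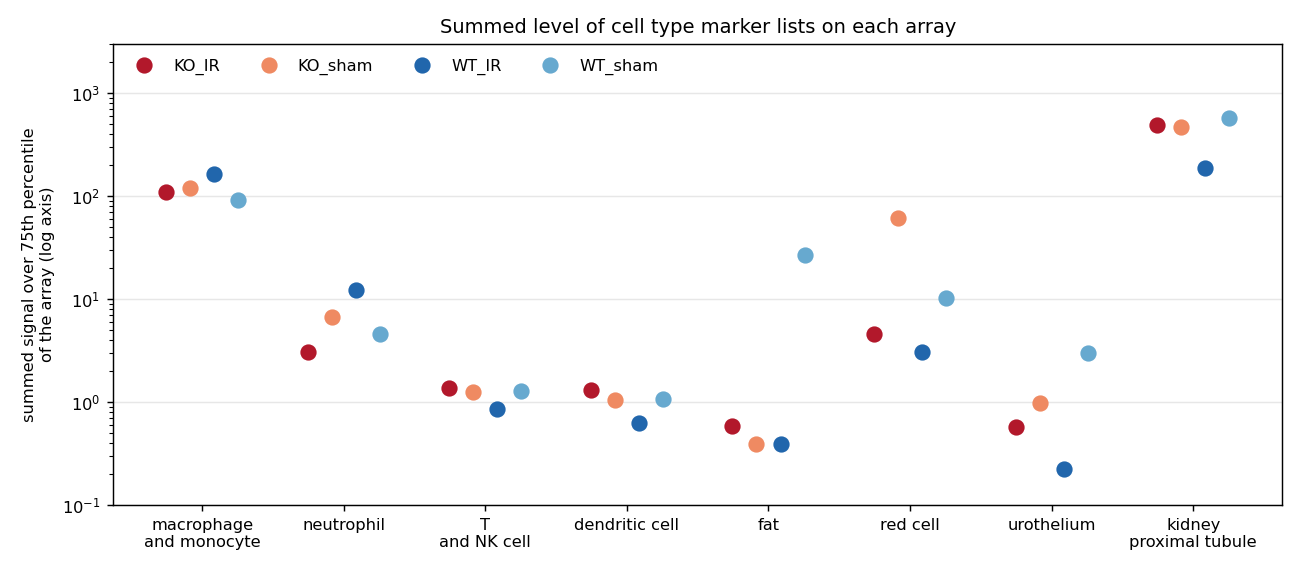
Summed signal of cell type marker lists on each array, relative to the 75th percentile of the array, on a log axis; most of the macrophage sum is Ly6c2. Each point is 1 array; fat markers reach 26.8 in the sham wild type and red cell markers 61.0 in the sham knockout, and neutrophil markers are highest in the injured wild type, at 12.3.

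Over the 4 arrays, the gene whose pattern lay closest to that of Ccl2 was Cxcl10, a CXC chemokine induced by interferon. The root mean square difference of their centred levels was 0.15, among 14993 genes above background on all arrays. Cxcl10 read 1.94 in the injured knockout and 0.05 in the sham knockout, against -0.16 in the injured wild type and -0.21 in the sham wild type. Cit (0.25), Ncam1 (0.27) and Tnnc1 (0.27) followed, and 2 genes lay within 0.25 of Ccl2. The genes nearest to Ccr2 were Atp11a (0.06), Tulp3 (0.08), Olfr1232 (0.09) and Cpq (0.09). Of the 14993 genes, 163 lay within 0.25 of Ccr2, which was high in the injured knockout and the sham wild type. The distance grows with the size of the changes. The counts for Ccl2 and Ccr2 therefore do not compare how common their patterns were. With 4 arrays that differ in slide, sex pattern and signal, such likeness is a description only.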

How the data were processed

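Groups were taken from the labels, with 1 array each. Agilent Feature Extraction (10.7.3.1 by the file headers, but 9.1 in the submitters' processing notes) made the deposited intensity of each spot. It is background-subtracted and detrended per array, per the file headers, with no scaling across arrays. The authors also deposited log2 values for these arrays in 1 table, with medians of 5.91 to 5.93, no centring of genes seen and the normalization not given in the sources used here. It served as an alternative. Probe coordinates are those of mm9.

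Spots that were controls or carried 1 of 2 outlier flags were removed, spots of a probe were averaged, and log2 signal minus the 75th percentile of the array was used. Probes were named through the GRCm38.p6 gene table by accession (27649 probes), symbol (5584) or synonym (471). Another 1264 were left with the array's own name, and 6174 had none. Genes above background on at least 2 arrays entered limma 3.58.1 (R 4.3.3), with Benjamini-Hochberg adjustment. The members, the gene lists and the rule for naming genes (all 10 members, the 2 furthest called chemokines and receptors each way, Ccr1, and the 4 nearest genes to Ccl2 and Ccr2) were chosen with earlier results of these data known. A further gene of the rule is not reported here. The limma injury fit and the 2-fold call of the wild type pair were run on simulated data with planted increases. The settings of that simulation came from the fit to these arrays. The genotype fit, the other pairs and the difference of responses were not simulated. Alternatives covered background correction, scaling, the flag filter, averaging probes, the fold threshold, the background filter and each array left out. A common floor and a fit with 1 factor were added after seeing the data. The number of arrays limits the precision.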

Additional observations from a re-analysis of the deposited data

Results flagged for a closer look

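The injury responses of 6 members ran in opposite directions in the genotypes, on each probe's own signal and with both responses above 2 times the noise between spots. With 1 array per group this difference was not tested. The share of all genes that meet the same rule was not computed, so the count of 6 has nothing to be set against. Ccl12 stood at 1.11 in the knockout and -4.15 in the wild type. Ccl4 stood at 0.56 in the knockout and -3.48 in the wild type, and Ccl8 at 0.39 and -2.92 in the same order. These 3 genes were not above background in the injured wild type, so their wild type values rest on a dim spot. The noise between spots was not measured on such dim spots. Ccl5 stood at 1.14 in the knockout and -1.75 in the wild type, and its second probe at 1.03 and -2.39. Ccr2 stood at 0.85 in the knockout and -1.08 in the wild type. Ccl6 ran the other way, at -0.65 in the knockout and 0.53 in the wild type.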

How the results depend on the processing

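Of 27 member differences called, median scaling, quantile normalization, the authors' table, no flag filter and no background filter each kept all 27 in direction and call. Averaging probes and a common floor (chosen after seeing the data) kept 26 each, without Ccl7 between the sham arrays. Normexp background correction gave values for 26, kept the direction of 25, and kept 13 calls with all spots and 11 without flagged spots. The exception was Ccl6 between the responses, at 0.14 with all spots and 0.0932 without flagged spots. Normexp on all spots also moved the median of all genes by 0.26 in the wild type response, 0.23 in the knockout response and 0.19 between the injured arrays, and median scaling moved it by -0.11 in the wild type response and -0.16 between the sham arrays. With normexp on all spots, 7 members were higher for the knockout response and 2 were called between responses. For the wild type response 1 member was higher and 1 lower, beside 2171 genes higher and 1341 lower. Between sham arrays 1 member was higher, beside 213 genes higher and 304 lower. Without flagged spots 1 member was higher and 1 lower for the wild type response, beside 2192 genes higher and 1339 lower. Between sham arrays 1 member was higher, beside 218 genes higher and 302 lower. Between injured arrays 4 members were higher, beside 602 genes higher and 720 lower, and between responses 2 were called. The knockout response of all genes gave 4538 higher and 555 lower calls with normexp, against 760 and 543. At a 4-fold threshold, 0 members were called for the knockout response, where 219 of all genes were higher and 54 lower. For the wild type response 2 members were lower, beside 682 genes higher and 527 lower. Between sham arrays 1 member was higher, beside 61 genes higher and 111 lower. Between injured arrays 3 members were higher, beside 344 genes higher and 291 lower. Between responses 1 member was called. Requiring both arrays above background left 1 member higher and 2 lower for the wild type response, beside 2008 genes higher and 1882 lower. Between injured arrays it left 3 members higher and 1 lower, beside 1246 genes higher and 1109 lower. Without filter or bounds 8 members were called between responses. The share of all genes called between responses was computed in the main setting only. The counts of members between responses under the alternatives therefore have nothing to be set against. With the sham wild type as sham array, 7 were called for the knockout response. The limma fit called 4438 and 4477 genes for injury, and 97 and 108 for genotype, with normexp on all spots and without flagged spots. With the other factor dropped it called 0 genes for both on all 4 arrays. With each array left out as well, it called 0 to 769 genes for injury, the highest without the injured knockout, and 0 to 144 for genotype, the highest without the sham wild type. The cause was not tested. No paired analysis was possible, because each group had 1 array and the labels pair none of them. The additive fit does set injured against sham within each slide. The low signal of the injured wild type array limits what can be said of dim genes there.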
